A study of Mus musculus with 8 samples.

Results

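The genes of 10 inflammatory cytokines were followed in mouse forepaw skin after an intradermal injection of PACAP (pituitary adenylate cyclase-activating polypeptide) or of vehicle. The members were taken by name: every non-control probe whose gene name in the scanner files was Il6, Osm, Lif, Il11, Il1a, Il1b, Il1rn, Il33, Tnf or Csf3. All 10 genes were found, each with 1 probe, out of 29608 gene names and 39429 probes on the array. The probes for Il1b and Tnf were printed on 10 spots per array and the other probes on 1 spot.

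Palm skin came from C57BL/6 wild-type (WT) mice and from Adcyap1r1-/- mice (PAC1R KO), which lack the PACAP receptor PAC1R, aged 9 to 10 weeks. Each mouse group was anaesthetised and given 5 µL of saline with bovine serum albumin, either alone (vehicle) or with PACAP at 1e-07 mol/L, into the footpad, and the skin was taken 30 or 60 min later. The 8 RNA samples formed 4 pairs (WT 30 min, WT 60 min, KO 30 min and KO 60 min, PACAP against vehicle in each), and every pair was hybridised on 2 two-colour Agilent arrays with the dyes swapped. The 2 arrays of a pair held the same RNA and counted as 1 replicate, so nothing below measures the spread between animals. The design text gives 6 mice per genotype and does not say which of them entered an RNA sample. The WT arrays shared 1 slide and the KO arrays another, so slide and genotype cannot be told apart. The probe for Adcyap1r1 was 0.31 (at 30 min) and 0.11 (at 60 min) lower in KO than in WT vehicle skin on the log2 scale. Which part of the gene was deleted is not given in the sources used here, so this probe does not check the genotype labels. The share of spots well above background was 78.6% to 94.5% in red and 54.0% to 65.3% in green, over the 8 arrays. All 8 keratinocyte and all 7 eccrine gland marker genes were well above background in every sample on both arrays. In whole skin, fewer cells of a type and less RNA per cell cannot be told apart.

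As background, these cytokines are early messengers of tissue injury. IL-1α and IL-1β bind the IL-1 receptor, and the antagonist encoded by Il1rn occupies the same receptor without signalling. TNF acts through TNF receptors, and both pathways switch on the transcription factors NF-kappa-B and AP-1, which drive further cytokine genes such as Il6. IL-6, IL-11, LIF and oncostatin M (Osm) share the signal-transducing receptor chain gp130 (Il6st), which activates JAK1 and STAT3 and induces the feedback inhibitor Socs3. IL-33, kept in the nucleus of barrier cells, acts through the receptor ST2 (Il1rl1), and Csf3 encodes the granulocyte colony-stimulating factor G-CSF. Keratinocytes, fibroblasts, mast cells and macrophages of the skin can all make several of them.

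The results below turn on Il6, Il1b and Tnf, which were higher at 60 than at 30 min in vehicle skin of both genotypes, so the 250 bases before their start sites are shown (RefSeq, GRCm38.p6, each read on the gene's own strand). Capitals mark every match to an NF-kappa-B consensus, to the AP-1 site TGANTCA, to the cAMP response element TGACGTCA or to the TATA sequence TATAAA, searched on both strands. No 2 matches overlapped.
Il6, chr5:30012864-30013113, plus strand: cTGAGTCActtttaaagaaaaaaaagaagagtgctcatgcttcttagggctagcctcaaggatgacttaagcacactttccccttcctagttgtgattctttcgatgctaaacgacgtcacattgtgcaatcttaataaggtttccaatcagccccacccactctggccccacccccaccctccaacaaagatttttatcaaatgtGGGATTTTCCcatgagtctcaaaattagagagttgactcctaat
Il1b, chr2:129371140-129371389, minus strand: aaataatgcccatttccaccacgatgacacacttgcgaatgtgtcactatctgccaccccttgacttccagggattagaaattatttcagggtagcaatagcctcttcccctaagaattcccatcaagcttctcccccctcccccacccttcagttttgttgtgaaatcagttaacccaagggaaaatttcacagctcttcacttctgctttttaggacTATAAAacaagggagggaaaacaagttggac
Tnf, chr17:35202008-35202257, minus strand: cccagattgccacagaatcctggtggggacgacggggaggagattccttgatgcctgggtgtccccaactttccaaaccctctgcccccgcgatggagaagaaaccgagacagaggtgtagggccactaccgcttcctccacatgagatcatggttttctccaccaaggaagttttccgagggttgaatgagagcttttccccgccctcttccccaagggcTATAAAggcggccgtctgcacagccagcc
The Il6 window held 1 NF-kappa-B match, starting 44 bases before the start site, and 1 AP-1 match at 249 bases. The Il1b and Tnf windows each held TATAAA, at 31 and 29 bases before the start. Windows were found for 8 of the 10 members (Osm and Csf3 were the other two). Among these 8 genes, with 12 windows in all, 2 (Il6 and Lif) had the NF-kappa-B match, 5 had AP-1, 4 had TATAAA and 0 had the full cAMP response element. Counted in the same way, over windows of this length, 8.23% of all 27025 genes had the NF-kappa-B match, 7.82% AP-1, 14.3% TATAAA and 1.77% the cAMP response element. These matches are letters in a window and were not tested as sites.

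PACAP over vehicle was read as the software's log ratio, expressed with PACAP in the numerator and averaged over both arrays. A member was counted where the mean ratio was at least 2.0-fold or at most 0.5-fold, in the same direction on both arrays, each with a p below 0.01 from the scanner software (Feature Extraction). That p comes from the software's error model and speaks of 1 array, not of animals. In WT at 30 min, 2 of 10 members (Il6 and Il1b) were counted as higher, where 0.254% of all probes were, and 0 as lower (0.0964% of all probes). At 30 min in KO, Il6 and Il1b were again counted as higher (2 of 10, against 0.601% of all probes) and 0 as lower (0.107%). In WT at 60 min 0 members were counted in either direction, against 0.583% of probes higher and 0.109% lower. In KO at 60 min 1 member, Csf3, was counted as higher, against 0.142% of probes, and 0 as lower (0.15%). The median log2 ratio of the 10 members was -0.09, -0.05, 0.29 and 0.16 in WT 30 min, WT 60 min, KO 30 min and KO 60 min, and that of all probes was 0 in each.

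**Figure D1:**
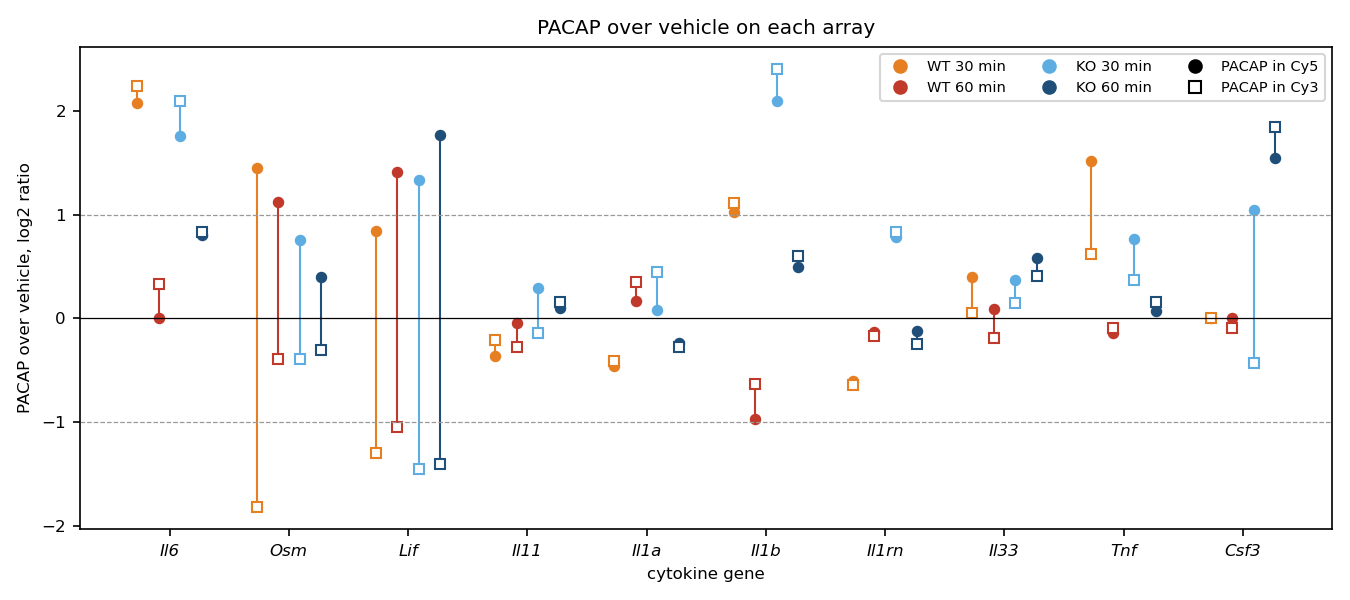
PACAP over vehicle as a log2 ratio (vertical axis) for each of the 10 cytokine genes (horizontal axis), with colours for the 4 comparisons, filled circles for the array with PACAP in Cy5, open squares for the array with PACAP in Cy3, and dashed lines at 2.0-fold and 0.5-fold. Il6 lies above the upper line on both arrays at 30 min in WT and KO, and the arrays of Osm and Lif lie on opposite sides of 0 in all 4 comparisons.

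Il6 (accession NM_031168; probe at chr5:30346367-30346426 in mm9, the build of the array files) encodes the main secreted ligand of the gp130 family. In vehicle-injected skin taken at 30 min its log2 level was 7.01 (WT) and 7.20 (KO), and at 60 min 9.22 (WT) and 9.75 (KO). In PACAP-injected skin it was 8.39 and 8.60 at 30 min and 9.36 and 10.58 at 60 min, in the same order. The 4 samples taken at 60 min were all above the 4 taken at 30 min, and at 30 min both PACAP samples were above both vehicle samples. The samples of a pair shared their arrays, and the times lay on different arrays. The 2 dyes of a sample differed by at most 0.27. The vehicle samples of the genotypes at 30 min were 0.19 apart, at 0.18 and 0.21 when the same dye was compared. None of these gaps measures the spread between animals.

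At 30 min Il6 rose with PACAP 4.22-fold and 4.73-fold on the 2 arrays of WT and 3.39-fold and 4.27-fold on those of KO. The WT ratio ranked 7 among the 39428 probes of that comparison, and the KO ratio ranked 88 among 39426. At 60 min its ratio was 1.00 and 1.26 in WT, and 1.75 and 1.79 in KO, short of the 2.0-fold threshold in both. The software's p for the KO arrays at 60 min was 2.05e-04 and 1.22e-04. With normexp background correction and loess normalization, which compress the ratios of dim spots, Il6 at 30 min gave 2.61 (WT) and 2.64 (KO) and was still counted.

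The mean log2 PACAP effect on Il6 over all comparisons was 1.27 (standard error 0.33) and was positive in each. In limma it had an unadjusted p = 0.0079 and an adjusted p = 1.0. That fit called 0% of 30351 probes, and Csf3 was the only member not tested in it. An unadjusted p below 0.05 was reached by 678 probes, against 1518 expected with no difference. The same 1518 applies to the other fits of these 30351 probes. The effect at 60 min minus that at 30 min was -1.55 on the log2 scale (standard error 0.29, unadjusted p = 0.0020, adjusted p = 1.0 in limma), the third smallest p of the fit, which also called 0% of probes (483 unadjusted). With normexp and loess it was -0.90. The smaller ratio at 60 min stood beside a higher vehicle level, not a lower PACAP level.

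Il1b (NM_008361; chr2:129190347-129190406, mm9) encodes IL-1β, made as a precursor that caspase-1 cuts. Its log2 level in vehicle skin at 30 min was 7.60 for WT and 7.63 for KO, and at 60 min 9.39 and 9.88. In PACAP skin it was 8.40 and 9.51 at 30 min, and 8.72 and 10.43 at 60 min. The vehicle samples of both genotypes lay within 0.04 of each other at 30 min, while the KO sample with PACAP was 1.11 above the WT sample with PACAP.

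PACAP over vehicle for Il1b at 30 min was 2.04-fold and 2.17-fold on the arrays of WT and 4.27-fold and 5.30-fold on those of KO, counted as a rise in both. With normexp and loess the WT mean was 1.75-fold, under the threshold, and the KO mean 3.67-fold. At 60 min the WT arrays gave 0.511 and 0.644 and the KO arrays 1.41 and 1.52. The WT ratio at 60 min stayed above the 0.5-fold threshold, with a software p of 1.61e-05 and 0.0021. The 10 spots of the probe kept these groups apart: after outlier spots were dropped, the spots of WT 60 min ran from 0.480 to 0.682, and those of KO 60 min from 1.36 to 1.60. Spots of 1 array share the same RNA and show only how well the array measured it.

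**Figure D2:**
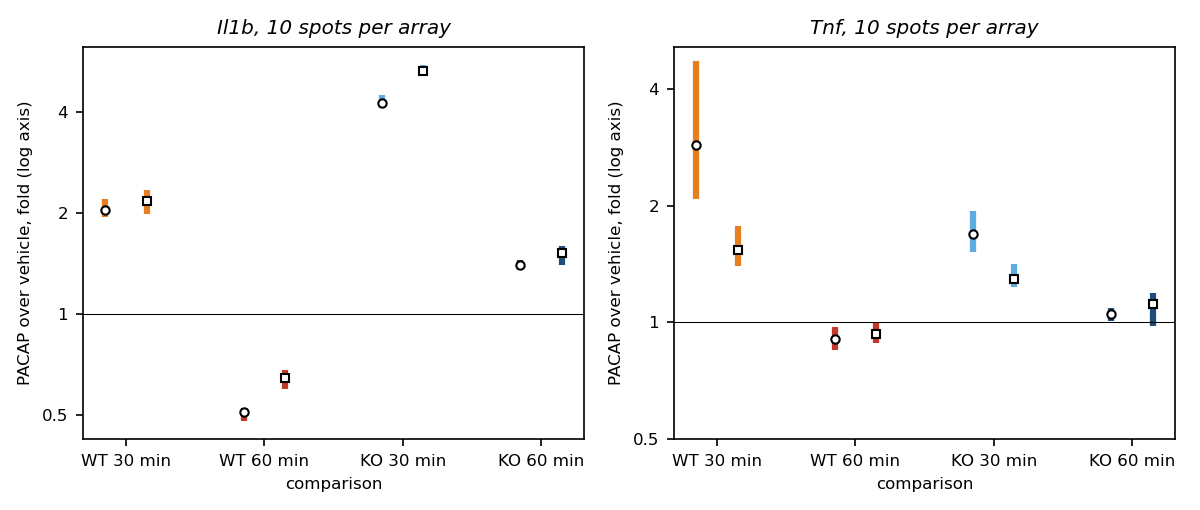
PACAP over vehicle as a fold on a log axis for Il1b (left) and Tnf (right) in each comparison, where each bar spans the lowest to the highest of the spots kept on 1 array and the marker is the array's value (circle, PACAP in Cy5; square, PACAP in Cy3). The Il1b spots of WT 60 min lie below 1 and those of the other comparisons above it, while the Tnf spots of WT 30 min span 1.40-fold to 4.72-fold over its 2 arrays.

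The log2 effect on Il1b was 1.26 larger in KO than in WT (standard error 0.75, unadjusted p = 0.14, adjusted p = 0.84 in limma), with both KO values above the WT value of the same time. This fit called 0% of 30351 probes (972 unadjusted), and the Il1b difference turned on which pair was left out. It was 0.33 without WT 60 min and 0.41 without KO 30 min (adjusted p = 1.0 in both), 2.11 without KO 60 min (adjusted p = 0.31) and 2.20 without WT 30 min (adjusted p = 8.57e-05), the lone pair of an arm being assumed to vary like the others. Leaving out a pair also sets both times of 1 genotype against 1 time of the other, so these values mix time with genotype. With time as a covariate and all pairs kept, the difference was 1.26 (standard error 0.31, adjusted p = 0.30). Over all alternatives its adjusted p ran from 8.57e-05 to 1.0. The effect at 60 min minus 30 min was -1.79 (standard error 0.57, unadjusted p = 0.021, adjusted p = 1.0 in limma), and -1.11 without WT 60 min.

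Neutrophil markers were measured beside Il1b, since neutrophils carry much IL-1β. The summed log2 level of 10 such markers ran from 10.83 to 11.19 in the vehicle samples and from 10.94 to 11.70 in the PACAP samples. It was 10.97 with vehicle and 11.70 with PACAP in KO at 30 min, and 11.19 and 10.98 in WT at 60 min. Of the 10, 9 had a ratio above 1 in the first of these pairs. In it 2 of them, Retnlg and Mmp9, were counted as higher, where 0.601% of all probes were. Retnlg was well above background in all 16 measurements, Mmp9 in only 10, with a level of 6.10 with vehicle and 6.44 with PACAP in that pair, and the granule genes Ltf, Ngp and Mmp8 in 7 to 9. In WT at 30 min, where Il1b was also counted as higher, the list had a median log2 ratio of -0.05 with 4 of 10 above 0. In that comparison macrophage and monocyte markers had a median of 0.19 (9 of 9 above 0) and mast cell markers one of 0.28 (6 of 8). Such values were not particular to these lists. The median was 0.77 for muscle (8 of 8), 0.45 for fibroblast (6 of 6), 0.28 for hair shaft (8 of 8) and 0.18 for keratinocyte markers (6 of 8). It was 0.09 for endothelium (3 of 6), -0.04 for liver (2 of 8) and -0.18 for eccrine gland markers (2 of 7). The part of these cells in the Il1b ratios was not tested. In KO at 30 min 6 of 8 hair shaft genes were counted as higher (0.601% of all probes). Krt1 and Krt10 of 8 keratinocyte genes and Acta1 and Myh4 of 8 muscle genes were counted as lower (0.107% of all probes). In WT at 60 min 5 of 8 liver genes were counted as lower (median log2 ratio -1.66), where 0.109% of all probes were. There 7 of 8 hair shaft genes were counted as higher (0.583% of all probes). These 7 were all the keratins of that list, and its other gene was Hoxc13. The liver genes summed to 11.69 in that vehicle sample and to 10.94 to 11.22 in the other vehicle samples. The part of these genes' sources was not tested either.

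Il1rn (NM_001039701; chr2:24205094-24205153, mm9), the gene of the IL-1 receptor antagonist, had a level of 8.81 with vehicle and 8.33 with PACAP in WT at 30 min. The order was turned in KO at that time, with 8.30 for vehicle and a PACAP level 0.70 above it. The PACAP ratio was 0.659 and 0.641 on the WT arrays and 1.72 and 1.78 on the KO arrays, each with a software p below 0.01 but short of the fold thresholds. At 60 min the ratios lay between 0.840 and 0.920 in both genotypes. The log2 effect was 0.70 larger in KO than in WT over both times (standard error 0.37, unadjusted p = 0.11, adjusted p = 0.84 in limma). It ranged from 0.20 without KO 30 min to 1.19 without KO 60 min, values that also mix time with genotype.

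Il1a (NM_010554; chr2:129125994-129126053, mm9), whose product IL-1α is stored in keratinocytes and active without cleavage by caspase-1, stayed within a narrow range. Its 8 sample levels ran from 7.96 to 8.33 with a median of 8.19. Its mean ratio was 0.739 and then 1.20 in WT (30 and 60 min), and 1.20 and then 0.839 in KO, and none passed the counting rule. Il33 (NM_001360725; chr19:30035101-30035160, mm9) had levels from 9.42 to 10.16. Its largest log2 ratio was 0.58 and 0.41 on the arrays of KO at 60 min. In vehicle skin Il33 was 0.34 higher in KO than in WT (log2, standard error 0.06, unadjusted p = 0.0070, adjusted p = 0.76 in limma). That fit called 0% of 37538 probes, with 2425 at an unadjusted p below 0.05, against 1877 expected with no difference. With processed signals the Il33 difference was 0.10 (adjusted p = 0.95 in limma), and it was 0.22 at 30 min and -0.01 at 60 min.

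Tnf (NM_013693; chr17:35336795-35336854, mm9) had a vehicle level of 6.44 (WT) and 6.49 (KO) at 30 min, and of 7.56 and 7.41 at 60 min. With PACAP it was 6.71 and 6.65 at 30 min, and 7.51 and 7.48 at 60 min. As for Il6, all 60 min samples were above all 30 min samples. The PACAP ratio in WT at 30 min was 2.86 on the array with PACAP in Cy5 and 1.54 on its dye swap, with a software p of 0.0013 and 0.053, so that Tnf missed the counting rule although its mean was 2.10-fold. In that comparison the vehicle sample passed the background test on 1 array and failed it on its dye swap. In KO at 30 min the ratio was 1.70 and 1.29, and at 60 min it lay between 0.908 and 1.11 in both genotypes. With normexp and loess the WT 30 min ratio was 1.20-fold.

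Lif, Osm and Csf3 were dim. Lif (NM_008501; chr11:4172032-4172091, mm9) had levels between 6.11 and 6.21 and passed the background test on 1 of 2 arrays in each of the 8 samples. Its log2 ratio was between 0.84 and 1.77 on every array with PACAP in Cy5 and between -1.45 and -1.05 on every dye swap, so the sign followed the dye. Osm (NM_001013365; chr11:4140146-4140205, mm9), made mainly by blood cells, showed the same, with 0.40 to 1.45 against -1.82 to -0.31, and levels from 6.36 to 6.74. Neither gene had the same direction on both arrays of any comparison. Il11 (NM_008350; chr7:4724847-4724906, mm9), well above background in all samples, had ratios from 0.822 to 1.09 in the 4 comparisons.

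Csf3 (NM_009971; chr11:98564614-98564673, mm9) was well above background with PACAP on both arrays only in KO at 60 min. There its ratio was 2.91 and 3.60, against a vehicle sample above background on 1 of 2 arrays, and its level was 6.09 with vehicle and 6.49 with PACAP. With normexp and loess the same ratio was 1.32-fold and was not counted. In WT the software had set the ratio to exactly 1 on 3 of 4 arrays or left it near 1, and the arrays of KO at 30 min disagreed in sign (2.07 and 0.743).

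**Figure D3:**
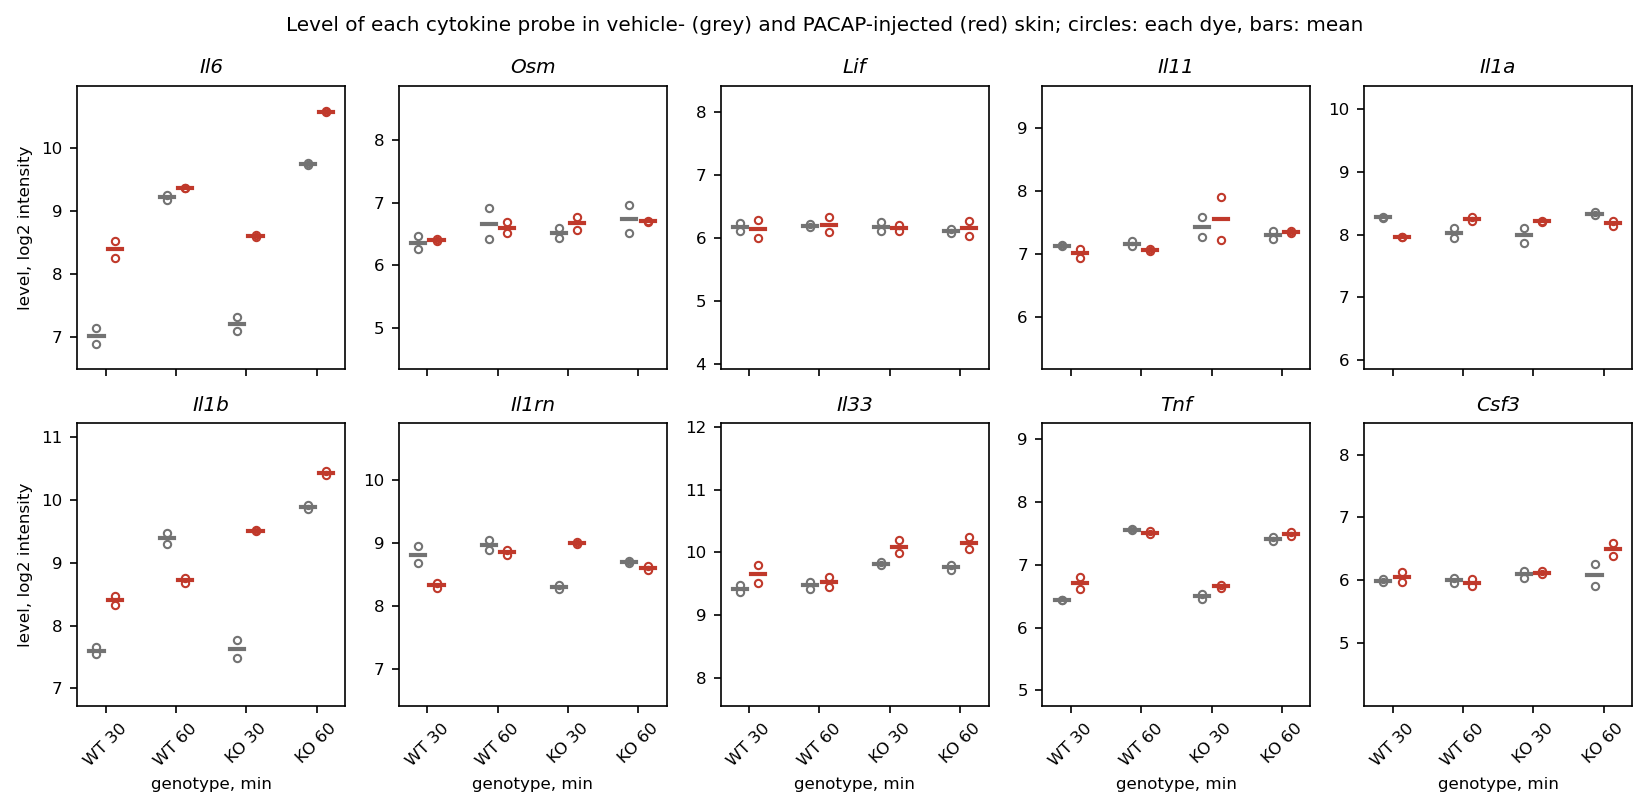
Log2 level (vertical axis, normalized intensity, each panel spanning the same range) of the 10 cytokine probes in the 8 RNA samples (horizontal axis, genotype and minutes), grey for vehicle and red for PACAP, with circles for the 2 dyes and bars for their mean. The vehicle level of Il6, Il1b and Tnf is higher at 60 than at 30 min in both genotypes, while Lif stays between 6.11 and 6.21.

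The levels of some members also differed between the times. In vehicle skin Il6 was 4.63-fold higher (WT) and 5.82-fold higher (KO) at 60 than at 30 min. Il1b was 3.46-fold and 4.77-fold higher, and Tnf 2.16-fold and 1.88-fold. Over both genotypes the log2 differences were 2.38 for Il6 (standard error 0.21), 2.02 for Il1b (0.19) and 1.01 for Tnf (0.08), each with adjusted p = 0.19 in limma and unadjusted p of 4.1e-04, 5.0e-04 and 2.4e-04. By fitted difference Il6 ranked 3 and Il1b 15 among 37538 probes. This fit called 0% of probes at an adjusted p below 0.05, with 6295 at an unadjusted p below 0.05, against 1877 expected with no difference.

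The calls differed between scales of the level. With the software's processed signals, centred on each array's median and without the added offset, the log2 differences were 2.97 for Il6, 2.28 for Il1b and 2.39 for Tnf, each with adjusted p = 0.026 in limma. That fit called 357 of 37538 probes (0.951%), 3 of the 10 members among them. Over all alternatives the adjusted p of each of the 3 ran from 0.026 to 0.55. Of the 3 genes Tnf moved most between the scales, from 1.01 to 2.39, and its 30 min vehicle signal was the dimmest. A link between these facts was not tested. The other 7 members were not called on either scale, and their log2 differences ran from -0.04 for Il11 to 0.27 for Il1rn on the first. Each value of this fit compares 2 vehicle samples per time, and the samples of a time were not tied to single animals. The times lay on different arrays, so time and array cannot be told apart in these levels.

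**Figure D4:**
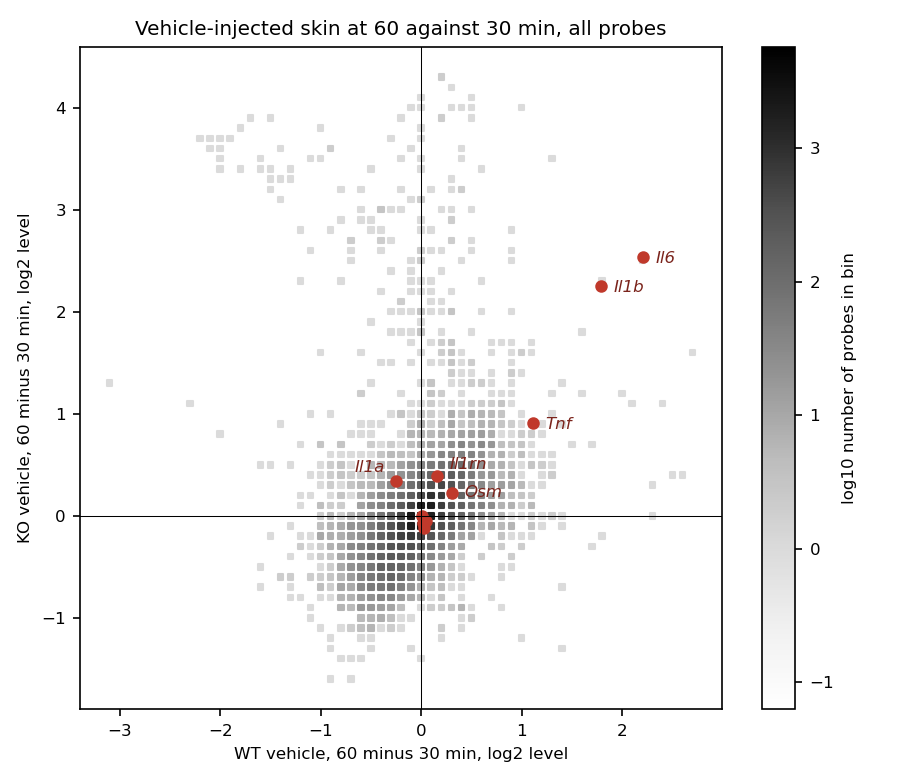
Log2 difference in level between vehicle-injected skin at 60 and at 30 min in WT (horizontal axis) and KO (vertical axis) for 39421 probes, binned by 0.1 and shaded by the log10 number of probes per bin, with the 10 cytokines in red (Csf3, Il11, Il33 and Lif, near the origin, carry no name). Il6 and Il1b lie at the upper right, apart from nearly all probes.

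Of 39421 probes, 15 were at least 2.0-fold higher at 60 min in both genotypes, and Il6 and Il1b were 2 of them. Il6 was the 1 probe with a log2 difference of at least 2 in both. The other 13, listed after their values were seen, were the chemokines Ccl7, Ccl2 and Cxcl1, the immediate early factor Atf3, the NF-kappa-B inhibitor Tnfaip3, Cd83, Nfil3, S100a7l2, Ppp1r3c, Gstm1, Fa2h, the hair keratin Krt35 and the antimicrobial gene Defb6. No probe was 2.0-fold or more lower in both genotypes. Hair keratins differed widely between vehicle samples: the summed level of 8 hair shaft genes ran from 11.52 to 14.53, against 17.46 to 18.02 for 8 keratinocyte genes and 14.11 to 14.47 for 9 macrophage and monocyte genes. In vehicle skin the median log2 difference between the times was 0.06 for neutrophil markers (8 of 10 above 0), 0.06 for macrophage and monocyte markers (6 of 9), 0.29 for mast cell (5 of 8), 0.32 for muscle (7 of 8), 0.33 for liver (8 of 8) and 1.19 for hair shaft (7 of 8). It was -0.38 for keratinocyte markers (0 of 8 above 0) and -0.29 for fibroblast markers (1 of 6). Only 4 of the 10 neutrophil probes were above background in every sample. Of these, Retnlg, Ly6g and Elane were higher at 60 min in both genotypes, and Camp in WT only. Retnlg was at 8.05 and then 9.005 in WT and at 7.97 and then 8.69 in KO (log2 difference 0.84, unadjusted p = 0.0032 in limma). The log2 difference was 0.22 for Ly6g, 0.18 for Elane and -0.01 for Camp. The median had opposite signs in WT and KO for 3 of these lists, a difference that was not tested. The hair shaft median was -0.37 in WT (6 of 8 genes below 0) and 3.03 in KO, the liver median 0.75 in WT (8 of 8 above 0) and -0.07 in KO (5 of 8 below 0), and the macrophage and monocyte median -0.06 in WT (4 of 9 above 0) and 0.33 in KO (8 of 9). The part of these tissues in the time differences was not tested.

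The PACAP samples were compared over time in the same way, a fit chosen after seeing the data. Il6 was 1.96-fold higher at 60 than at 30 min in WT with PACAP and 3.94-fold in KO, Il1b 1.25-fold and 1.89-fold, and Tnf 1.74-fold and 1.78-fold. In limma 0% of 36517 probes were called (2179 unadjusted, against 1826 expected with no difference). The log2 difference was 1.47 for Il6 (standard error 0.47, adjusted p = 0.83 in limma) and 0.87 for it without KO 60 min. For Tnf it was 0.82 (standard error 0.07, adjusted p = 0.37 in limma). With processed signals 281 probes (0.77%) were called, and of the members only Tnf, at 1.58 with adjusted p = 0.031 in limma (0.031 to 1.0 over its alternatives). For Il1b the 60 min PACAP level in WT, 8.72, was below the vehicle level of the same time, 9.39.

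Of 12 receptor genes, all well above background in every sample, 1 was counted in any comparison: Il1rl1, the IL-33 receptor, in KO at 30 min, where 0.601% of all probes were higher. Its level there was 7.50 with vehicle and 9.93 with PACAP, a log2 ratio of 2.87, while in WT at 30 min it was 6.86 and 6.85. It was 8.34 and 9.06 in KO at 60 min, and 6.82 and 6.77 in WT. The median log2 ratio of the list was 0.27, 0.00, -0.22 and 0.12 in WT 30 min, WT 60 min, KO 30 min and KO 60 min. In WT at 30 min 10 of 12 receptors had a ratio above 1, and in KO at 30 min 3 of 12. Some marker lists moved beside them: from WT to KO at 30 min the median log2 ratio went from 0.45 to -0.57 for 6 fibroblast genes, from 0.77 to -0.71 for 8 muscle genes and from 0.18 to -0.61 for 8 keratinocyte genes. It went from 0.19 to 0.17 for macrophage and monocyte genes and from 0.28 to 0.37 for mast cell genes. The part of these tissues in the receptor ratios was not tested.

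Of 12 processing, adaptor and feedback genes 0 were counted in any comparison, where 0.0964% to 0.601% of all probes were counted per direction. With shares this low, 0 of 12 says little of these genes. Their medians lay between -0.02 and 0.20. Socs3, the feedback inhibitor downstream of gp130, had log2 ratios from -0.03 to 0.35. Its vehicle level, however, was 10.60 (WT) and 10.63 (KO) at 30 min and 11.55 and 12.00 at 60 min, a log2 difference of 1.16. Jak1 and Stat3, the kinase and factor of the same pathway, had vehicle levels 0.75 and 0.59 lower at 60 min. None of the 3 had an adjusted p below 0.05 in the fit of vehicle levels, which called 0 probes.

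The genes whose level over the 8 RNA samples was most like that of Il6 were Pmaip1 (Pearson r = 0.96), Tnfaip3 (0.96), Dgat2l6 (0.95), Ccl7 (0.95) and Socs3 (0.95). They were taken from 1562 genes well above background in at least 4 samples with a log2 span of at least 1. For Il1b they were Ccl4 (r = 0.93), Clec4e (0.93), Il6 (0.93), Smim3 (0.92) and Pmaip1 (0.91). A correlation of at least 0.9 was reached by 38 of 1561 genes with Il6 and by 10 with Il1b. The 8 samples are 4 pairs that share arrays, and they share the contrast between 30 and 60 min. Tnf stood at r = 0.88 with Il6 and 0.73 with Il1b.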

How the data were processed

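Skin RNA of 4 PACAP and vehicle pairs was measured on 8 Agilent two-colour arrays. The authors scanned them with Feature Extraction (version 11.0.1.1 per the labels, 12.0.3.1 per the file headers). Each deposited log ratio, a log10 of Cy5 over Cy3, is background-corrected and LOWESS-normalized within each array by the authors' software, which sets some ratios to 0 (13.4% to 25.0% of spots here). The deposited p-value of a spot comes from the software's error model. The deposited intensity columns are the processed signal, the mean signal and the local background of each channel. The series matrix of the authors equals the log10 ratio of processed signals and served as an alternative.

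Here control spots and outlier spots (198 to 342 per array) were left out, spots of a probe were averaged, and ratios were turned to PACAP over vehicle by the dyes of the labels, converted to log2 and averaged over the 2 arrays of a pair. Levels came from normexp (offset 50), loess and Aquantile in limma 3.58.1 (R 4.3.3), as the mean of both dyes. The offset lowers the differences of dim probes. Fits across all probes used limma with Benjamini-Hochberg adjustment, on ratios of probes well above background and on levels of 4 vehicle samples. Scripts were tested on simulated data. Arrays give no read depth, and their number limits the precision. The members and lists were chosen with earlier results of these data known. Named genes were all members by their brightest probe, listed pathway genes past the counting rule, Adcyap1r1, and the 5 genes most like Il6 and Il1b; genes named outside this rule were chosen after their values were seen. Tried alternatives are given in the closing section. Names and probe coordinates (mm9) were read from the array files; promoter sequences are RefSeq's on GRCm38.p6, and the 2 builds were not mixed.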

Additional observations from a re-analysis of the deposited data

Results flagged for a closer look

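PACAP over vehicle ran in opposite directions on all arrays of 2 groups in the following cases, none of which was tested for a single pair of comparisons. For Il1rn the log2 ratio was 1.43 higher in KO than in WT at 30 min, and in KO it was 0.99 lower at 60 than at 30 min (-0.99). For Il1b it was 1.35 higher in KO than in WT at 60 min, and in WT the value at 60 min minus that at 30 min was -1.87. For Tnf the ratio in WT at 60 min minus that at 30 min was -1.19, and at 60 min KO was 0.23 above WT. The WT 30 min value rests on a vehicle sample above background on 1 of 2 arrays, and with normexp and loess the WT ratios were 1.20-fold at 30 min and 0.969-fold at 60 min. For Il1a, KO minus WT was 0.70 at 30 min and -0.51 at 60 min, and 60 minus 30 min was 0.70 in WT and -0.52 in KO. For Il11, KO was 0.29 above WT at 60 min. Ratios of Tnf at 60 min, Il1a and Il11 were all under 1.5-fold in size, and each group here is 1 RNA pair on 2 arrays.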

How the results depend on the processing

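Each ratio already pairs PACAP with the vehicle sample of the same arrays. With the replicate number as a block, no paired analysis was possible because that number marks the dye orientation of the same RNA pair, whose arrays were averaged into 1 replicate. Il6 stayed counted at 30 min in WT and KO under every alternative tried. With normexp and loess the members counted as higher were 1 in WT at 30 min (Il1b, at 1.75-fold against 2.10-fold, was lost) and 0 in KO at 60 min (Csf3 was lost); the cause was not tested. Without the p filter Tnf joined in WT at 30 min. On single arrays 2 to 3 members were counted as higher there and 0 to 1 as lower (Osm, whose sign followed the dye), while all probes counted went from 100 to 293 and 550 higher and from 38 to 319 and 320 lower. Among the limma fits, which called 0 probes, the mean effect called 0 to 1 without 1 comparison. The KO minus WT fit called 17 with time as a covariate and 0 to 170 without 1 comparison, which leaves a lone pair in an arm assumed to vary like the others. The fit of 60 minus 30 min called 2 with genotype as a covariate and 0 to 18 without 1 comparison. With processed signals the time fits called 357 probes for vehicle and 281 for PACAP.

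Some values with no call turned sign when 1 comparison was left out. In fits between genotypes or times this sets both levels of the other factor against 1, so by construction these values mix time with genotype and say little of stability. Il1rn's mean effect ran from -0.32 to 0.16 (0.0019 with normexp and loess) and its 60 minus 30 min effect from -0.97 to 0.45. The KO minus WT effect ran from -0.79 to 1.21 for Il6 and from -0.73 to 0.46 for Tnf (0.0091 with normexp and loess). The KO minus WT vehicle level ran from -0.91 to 1.63 for Il6, from -0.86 to 1.39 for Il1b and from -0.61 to 0.51 for Tnf (0.032 with processed signals). With time as a covariate these were 0.36 (standard error 0.11), 0.27 (0.14) and -0.05 (0.08), with the same estimates as without it. The PACAP level at 60 minus 30 min ran from -0.23 to 1.47 for Il1b and from -0.27 to 0.40 for Il1rn (-0.16 with processed signals). The adjusted p of the vehicle time difference ranged from 0.026 to 0.55 over the alternatives for Il6, Il1b and Tnf. Dim probes (Lif, Osm, Csf3) limit what the arrays can show.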
